A study of Mus musculus with 3 samples.

Results

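Inserts that carry an added CCA at their 3' end were described in small RNA libraries of HL-1, a line of beating heart muscle cells of the mouse. A member was an insert of 21 to 25 nt that ended in CCA, had no whole match in the nuclear or mitochondrial genome, and matched a nuclear chromosome exactly once CCA was taken off. Of 1025383 distinct inserts of 21 to 25 nt, 1168 were members, 711 in the library labelled siSrf1 and 783 in the library labelled siSrf2, with 326 in both. The rule used the sequence and not the read number. It admits any genome match ahead of CCA, so the share that came from tRNA had to be found from the matches.

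All libraries came from HL-1 cells that had received siRNA by Lipofectamine (9 µl at 20 µM in each well) and were harvested 48 h later. The titles name an unspecific siRNA (siNon) and 2 siRNAs against Srf, a transcription factor of muscle genes. The siNon library was not analysed here. Titles and siRNA entries of the samples disagree: the one titled siSrf1 has the entry Srf si2 and the one titled siSrf2 has the entry siNon. Directions therefore name the library as labelled. There was 1 library per group, so no test between conditions was possible. The intervals below are exact 95% intervals, which cover counting error only, as the reads carry no molecular identifiers.

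The libraries held 14911499 and 14518157 reads (siSrf1 first), of which 8855358 and 8301183 gave an insert of 15 nt or longer. Levels are RPM, here reads per 1000000 miRNA reads, with 4816917 and 4111859 miRNA reads. The cardiac miR-1a gave 66.7% and 55.9% of these miRNA reads and the cardiac miR-499 1.47% and 1.48%. The cardiac miR-133a went the other way from miR-1a, with 0.138% and 0.274%, and the cardiac miR-208a had only 210 and 305 reads. The liver miR-122 had 32 and 57 reads, the neuronal miR-124 had 15 and 7, the neuronal miR-9 had 91 and 92, and the blood miR-142a had 161 and 173. The smooth muscle miR-145a had 711 and 2592 reads and the endothelial miR-126a had 1966 and 1515.

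CCA is the end of every mature tRNA in the cell. Mouse nuclear tRNA genes do not encode it, and an enzyme adds it after transcription, so that an amino acid can be joined to the last A. An insert that matches the genome up to the discriminator base (position 73, the last base the gene encodes) and then reads CCA can thus come from a mature tRNA but not from its precursor before the tail is added. In the usual numbering the last A is position 76, so an insert of 22 nt starts at position 55, in the T loop, and one of 21 nt at position 56. Pieces of this kind are known as tRNA 3' fragments.

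The sequences below are the 12 most read members, followed by others the results turn on. Each is named by its tRNA isotype (the amino acid of its anticodon), its length and a letter by read number. Lower case is the part that matches the NCBIM37 genome, and capitals mark the added CCA.
Val-22-a: tcgaaaccgggcggaaacaCCA
Tyr-22-a: tcgattccggctcgaaggaCCA
Trp-22-a: tcaaatcacgtcggggtcaCCA
Gly-22-a: tcgattcccggccaacgcaCCA
Ala-22-a: tcaatccccggcatctccaCCA
Ser-22-a: tcgaatcccatcctcgtcgCCA
Ser-22-b: tcgaatcctgccgactacgCCA
Trp-22-b: tcaagtcacgtcggggtcaCCA
Gly-22-b: tcgattcccggccaatgcaCCA
Ala-22-b: tcaatccccggcacctccaCCA
Tyr-22-b: tcgaatccggctcgaaggaCCA
Tyr-22-c: tcgactccggctcgaaggaCCA
Gly-22-d: tcgattcccggcccatgcaCCA
Ala-22-c: tcgatccccggcacctccaCCA
Glu-23-a: ttcgactcccggtgtgggaaCCA
His-22-a: tcgaatccgagtcacggcaCCA
no-tRNA-22-a: tcgttgcccgcattctccaCCA
no-tRNA-24-a: agtacttccaggaacggtgcaCCA

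The 12 most read members were all of 22 nt and began with TC. Together they held 56.1% of the 33943 reads of all members. Another 744 members were seen once in the libraries together. Only 182 had 10 reads or more and 82 had 50 or more, and those 82 held 88.7% of the reads.

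Nearly all reads lay at tRNA 3' ends. A site was called a tRNA 3' end where the sequence ahead of it folded as a tRNA, with at most 1 unpaired position in each of the acceptor, anticodon and T stems. Such sites held 350 members with 12339 and 19311 reads, which was 92.4% (92.0 to 92.9) of all members' reads in the library labelled siSrf1. In the library labelled siSrf2 the share was 93.8% (93.4 to 94.1). The bodies of all members had 3374 sites in the genome, of which 473 had such a fold. Of these, 326 had the better folds (rank at most 3). The rank adds up unpaired positions, an intron and the lack of usual bases, such as those beside the anticodon. Of the 326, 314 equalled a RefSeq tRNA gene in chromosome, anticodon and length within 1 nt. None of the other 147 did. Isotypes were named from the 326 sites, which spanned 19 amino acids and 43 anticodons, and 293 members lay at them.

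Chromosome 13 held 87 of the 326 tRNA sites, more than any other chromosome, followed by chromosome 6 with 42 and chromosome 11 with 35. Sites were counted whatever their reads, so these numbers do not rank the sources of the reads. Cysteine, for one, had 41 of the sites and only 2 reads. The tRNA genes are not in the GENCODE vM1 annotation, so positions are described by what surrounds them. Val-22-a fits 12 genome sites, 11 of them tRNA sites, such as chr13:22107660-22107678 on the minus strand, between genes. Gly-22-a has 7 sites, 5 of them on chromosome 1 between 172968128 and 173032958, and 1 of these is in an intron of Fcgr3. Tyr-22-c has 1 site, chr3:19528429-19528447 on the plus strand, in an intron of 1700064H15Rik on the other strand. Ala-22-c also has 1 site, chr13:21332867-21332885 on the plus strand, between genes, and so has Trp-22-b at chr11:61221418-61221436 on the minus strand. Reads of the many-copy members cannot be given to 1 gene.

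Members with 1 genome copy were many but held few of the reads. A body with 1 genome copy was found for 735 members, but these held 2364 and 3979 reads, 17.7% and 19.3% of the reads of all members. Bodies with 2 to 5 copies (294 members) held 5148 and 7823 reads, and those with 6 to 20 copies (125 members) held 5829 and 8785. Above 20 copies there were 14 members with 8 and 7 reads. Of the members with 1 copy, 18.9% lay at a tRNA 3' end, against 69.6% of those with 6 to 20 copies. The difference between the libraries was of like size in the 3 filled copy classes, 1.97-fold, 1.78-fold and 1.77-fold higher in the library labelled siSrf2.

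The genome often holds the first bases of the tail by itself. At tRNA 3' ends the best site lacked all of CCA for 215 members with 56.3% of the reads, held C for 117 members with 39.8%, and held CC for 18 members with 3.89%. For members elsewhere, CC stood in the genome for 36.3% of the reads, so that only the last A was added there.

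CCA was nearly the only tail at tRNA 3' ends. The same search was made for all 64 tails of 3 bases. At the tRNA sites, which were found through the CCA inserts, CCA had 12297 and 19269 reads, 95.6% and 96.7% of those of all 64 tails, and the other 63 tails together had 560 and 659. Over the whole genome CCA ranked 6 of 64 by reads, and TTA ranked first. Of CCA reads 93.0% lay at tRNA 3' ends, against 0.00160% of TTA reads.

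At the tRNA sites found through the CCA inserts, the tail was mostly complete. Sites seen only with a shorter tail or none could not enter this count. Among reads that start at position 55, 9058 and 16298 had CCA, 98.4% and 98.5% of them. CC alone had 82 and 121 reads, C alone 18 and 30, and no tail 47 and 100. A doubled tail (CCACCA), known as a mark that sends unstable tRNA to decay, had no read at this start in either library.

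The 293 members at the better tRNA folds shared some bases of the T arm. Weighted by reads, position 55 was T in 100% of the inserts that reach it. Position 58 was A in 99.7% and position 61 was C in 99.99%. Members match the genome exactly, so these are genome bases. Reads with a changed base at position 58, described below, are left out by the rule. Within the T arm, position 59 varied, with A in 48.9% and T in 37.4%. The discriminator base at position 73 was A in 83.3% of reads and G in 14.1%. The stem bases between positions 61 and 73 varied. Position 71 was A in 25.5%, C in 17.5%, G in 37.1% and T in 19.9%.

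The difference between the libraries varied with length. The 22 nt members had 9379 reads in the library labelled siSrf1 and 16734 in the library labelled siSrf2, 70.3% (69.5 to 71.0) and 81.3% (80.7 to 81.8) of the reads of all members. Their level was 2.09 times as high in the library labelled siSrf2, and their log2 ratio (siSrf1 minus siSrf2) was -1.06 (-1.10 to -1.03). Members of 21, 23, 24 and 25 nt together had 3970 and 3860 reads, a log2 ratio of -0.19 (-0.25 to -0.12). At 21 nt there were 1839 and 1726 reads, at 23 nt 1191 and 1200, at 24 nt 781 and 780, and at 25 nt 159 and 154. So the read numbers were nearly level at every length but 22 nt.

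Over all lengths the members had 13349 and 20594 reads, or 2771 (2724 to 2819) and 5008 (4940 to 5077) RPM. That was 1.81-fold higher for siSrf2 as labelled, with a log2 ratio of -0.85 (-0.89 to -0.82). All inserts of 22 nt, most of them miRNAs, went slightly the other way, with 5223375 and 4321427 reads and a log2 ratio of 0.05. All inserts of 25 nt made up 0.999% and 1.92% of the 21 to 25 nt inserts. The share of 22 nt within the members does not depend on the scaling. The miR-1a share, a large part of the miRNA total, moved with this result, and its part was not tested; without the 5 most abundant miRNA inserts in the total, the log2 ratio of the 22 nt members was -0.80 and that of the other lengths was 0.075. The 22 nt ratio was thus short of 2-fold in that scaling, and also with TMM factors (-0.99) and scaled to all inserts of 15 nt or longer (-0.93).

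The lengths around the chosen window showed the same peak. Without the limits on length and on whole matches, inserts from 15 to 29 nt that end at a tRNA 3' end with CCA had 2 large peaks. The first, at 17 nt (position 60) and 18 nt (position 59), had 44262 and 31589 reads and 33119 and 30030 reads. The second, at 22 nt, had 9505 and 17221. Inserts of 19 nt or longer take in position 58, and reads with a changed base there were not counted. At 22 nt such reads, described below, were 17714 and 35404. Inserts of 17 and 18 nt start after that position, so the heights of the 2 peaks cannot be compared. Just outside the window, 20 nt had 1333 and 1110 reads and 26 nt had 101 and 84. A smaller peak at 27 nt had 364 and 326 reads.

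The log2 ratio was 0.26 (0.24 to 0.28) at 17 nt, -0.09 (-0.11 to -0.06) at 18 nt, -0.56 (-0.63 to -0.49) at 19 nt and -1.09 (-1.12 to -1.05) at 22 nt. At 20 nt it was 0.04 (-0.08 to 0.15). The higher level in the library labelled siSrf2 was thus seen at 22 nt and, less, at 19 nt, and not at the lengths between them.

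**Figure D1:**
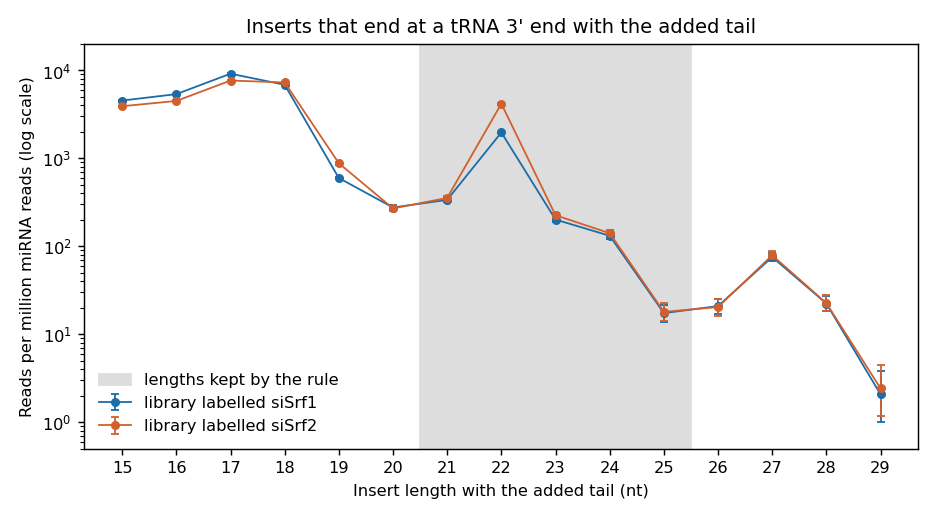
RPM (reads per 1000000 miRNA reads, log axis) of inserts that end at a tRNA 3' end with the added tail, by insert length in nt, for the library labelled siSrf1 and the library labelled siSrf2, with exact 95% counting intervals and the window of 21 to 25 nt shaded. The lines of the libraries lie close together except at 19 nt and at 22 nt, where the log2 ratios are -0.56 and -1.09. Reads changed at position 58, which inserts of 19 nt or longer take in, are not shown.

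Most single members past 2-fold were of 22 nt. A member was counted as different between the libraries if it had at least 50 reads, was at least 2-fold apart and had its whole interval on 1 side of 0. Of the 43 members of 22 nt with 50 reads or more, 23 were past this rule with more in the library labelled siSrf2, and 0 were past it with more in the library labelled siSrf1. Of all 2936 inserts of 22 nt with 50 reads or more, 9.47% were past it on the siSrf2 side and 9.13% on the siSrf1 side. Of the 39 members of the other lengths, 2 were past it on the siSrf2 side and 0 on the siSrf1 side, against 21% and 1.44% of all 2842 such inserts. Those 2 members were not at tRNA 3' ends. Over all lengths 25 of 82 members were past the rule on the siSrf2 side, against 15.2% of 5778 inserts, and 0 on the other side, against 5.35%. The median log2 ratio was -1.07 for members of 22 nt, of which 40 of 43 lay below 0, and 0.07 for all inserts of 22 nt. It was -0.15 for members of the other lengths and -0.26 for all inserts of those lengths.

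**Figure D2:**
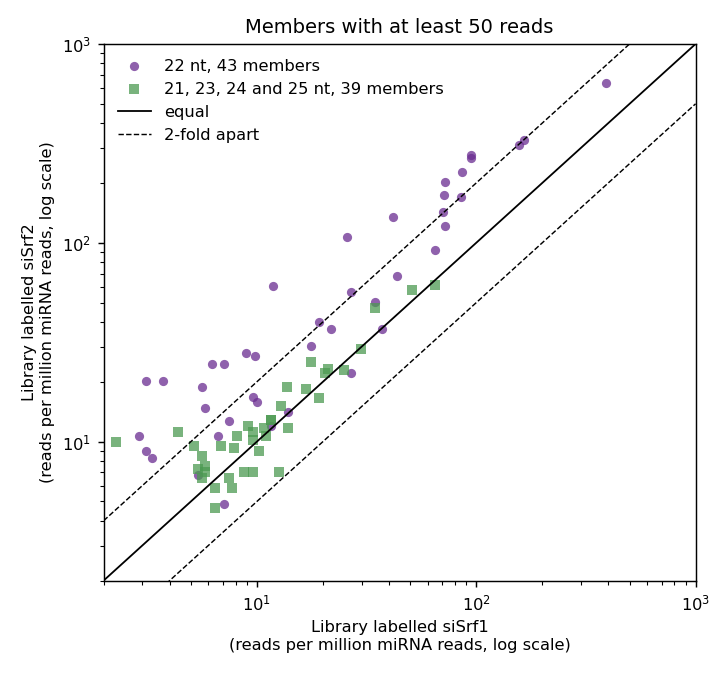
Each point is 1 of the 82 members with at least 50 reads, at its RPM (reads per 1000000 miRNA reads) in the library labelled siSrf1 and in the library labelled siSrf2 (log axes), with lines at equality and at 2-fold. Of the 43 members of 22 nt, 40 lie above equality and 23 were past the size rule, while the 39 members of other lengths lie on both sides of equality.

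Valine tRNA brings valine to the ribosome and gave the member most read as an exact match. Val-22-a, at tRNAs with the anticodons AAC and CAC, had 1877 reads in the library labelled siSrf1 and 2627 in that labelled siSrf2. Its log2 ratio was -0.71 (-0.80 to -0.63). It was short of 2-fold, as was Val-22-b (TAC) with 85 and 124 reads. Val-22-c and Val-22-d, which share its anticodons, had 47 and 111 and 34 and 101 reads and were past the size rule, with log2 ratios of -1.46 and -1.79. Its isotype had 2662 and 3529 reads, 19.9% and 17.1% of the reads of all members. Reads changed at position 58, counted apart below, were 1506 and 2250 for Val-22-a and 4866 and 10557 for Tyr-22-a. By isotype they were 2049 and 2861 for valine and 6531 and 12896 for tyrosine. With these reads counted, tyrosine stood above valine in both libraries. So did tryptophan, with 5524 and 8316 changed reads, and glycine, with 3535 and 8673.

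The 3 most read tyrosine members differ by 1 base, at position 59: Tyr-22-b by T5A and Tyr-22-c by T5C from Tyr-22-a, counted from the insert's 5' end. Tyr-22-a (3 sites) had 797 and 1348 reads, Tyr-22-b (5 sites) 348 and 497, and Tyr-22-c (1 site) 201 and 552. Their log2 ratios were -0.99 (-1.11 to -0.86), -0.74 (-0.94 to -0.54) and -1.68 (-1.93 to -1.45). So the interval of Tyr-22-c lay apart from the others, and all 3 serve the anticodon GTA. Among tryptophan members, Trp-22-a (6 sites) had 758 and 1282 reads and Trp-22-b (1 site) 410 and 696, both with a log2 ratio of -0.99. Trp-22-c (1 site) had 166 and 206 reads, with the log2 ratio at -0.54 (-0.84 to -0.24). That interval lay only just apart from that of Trp-22-a (-1.12 to -0.86) and overlapped that of Trp-22-b (-1.17 to -0.81). All 3 serve the anticodon CCA, and none was past 2-fold.

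Of the 5 glycine members of 22 nt with 50 reads or more, 4 were past the size rule. Gly-22-a (anticodon TCC) had 456 and 1135 reads, a log2 ratio of -1.54 (-1.70 to -1.39). Gly-22-b (CCC and GCC) had 345 and 712, a log2 ratio of -1.27 (-1.46 to -1.09), an interval that overlaps that of Gly-22-a. Gly-22-c (CCC) had 314 and 378 reads and was short of 2-fold, at -0.50 (-0.72 to -0.28). Gly-22-d, with GCC and 3 sites on chromosome 1, had 57 and 248 reads, a fold of 5.06 in favour of the library labelled siSrf2. This was the member furthest from 0 among those with 200 reads or more.

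All 6 alanine members of 22 nt with 50 reads or more were past the size rule, as were 3 of the 5 of serine. Ala-22-a (CGC and TGC) had 456 and 1097 reads, Ala-22-b (AGC) 339 and 585, and Ala-22-c (TGC) 124 and 440. Their log2 ratios were -1.49, -1.01 and -2.05, and that of Ala-22-b fell short of 2-fold under every other scaling tried. Ser-22-a (GCT) had 417 and 933 reads, and Ser-22-b (AGA and TGA) had 347 and 832, with log2 ratios of -1.39 and -1.49. Ser-22-c (CGA) had 209 and 281 reads and Ser-22-d (TGA) 48 and 65, and both were short of 2-fold, at -0.65 and -0.66. At the other lengths 0 of 3 alanine and 0 of 3 serine members were past the rule; Ala-21-a stood at -0.86 and Ser-21-a at 0.03.

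Of the 10 glutamate members with 50 reads or more, 1 was past the size rule: Glu-22-b (CTC and TTC), with 92 and 165 reads, at a log2 ratio of -1.07 (-1.46 to -0.69). Glu-23-a (TTC), of 23 nt, had 246 and 237 reads, a log2 ratio of -0.17 (-0.44 to 0.09), and Glu-22-a (TTC) had 179 and 152, a log2 ratio of 0.01. His-22-a (GTG) had 129 and 91 reads, a log2 ratio of 0.27 (-0.12 to 0.68). Asp-22-a (GTC) had 67 and 58 reads, and its interval of -0.55 to 0.51 took in 0. The remaining most read members of their isotypes were small: Thr-22-a had 129 and 232 reads, Ile-22-a 105 and 151, Leu-22-a 46 and 69, Lys-22-a 36 and 52, and Met-22-a 26 and 28. Asn-22-a had 9 and 46, Arg-22-a 14 and 44, Gln-22-a 26 and 19, and Pro-24-a 23 and 15.

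By isotype, 16 of the 18 with at least 50 reads lay below 0. Aspartate and proline, at -0.04 each, moved above 0 in all 5 other scalings, and glutamate and methionine in that without the 5 most abundant miRNA inserts. The proline ratio rests on 49 and 43 reads. It leaves out the main proline insert of 22 nt, which was no member and had 447 and 923 reads. Glycine (1639 and 2929 reads, log2 ratio -1.07), serine (1349 and 2488, -1.11), alanine (1199 and 2614, -1.35), arginine (64 and 205, -1.90) and asparagine (15 and 55, -2.07) were past the size rule, each with more in the library labelled siSrf2. Glycine fell short of 2-fold with TMM factors (-0.99), scaled to all inserts of 15 nt or longer (-0.93), without the 5 miRNA inserts (-0.80) and, at -0.998, with a mismatch allowed in the adapter. Serine fell short without the 5 miRNA inserts (-0.85) and scaled to all inserts (-0.98). Alanine, arginine and asparagine stayed past 2-fold in the 9 alternatives run. Tryptophan (1739 and 2560, -0.79) and tyrosine (1617 and 2646, -0.94) were short of it. Histidine (146 and 109) and glutamine (35 and 23) lay above 0, with intervals that took in 0. The 6 most read isotypes (Val, Gly, Trp, Tyr, Ser and Ala) held 76.4% and 81.4% of the reads of all members. No member was found for phenylalanine or selenocysteine, and cysteine, with many genes, had 2 reads.

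In the 6 most read isotypes the difference again lay mostly in the 22 nt inserts. Glycine had 1200 and 2534 reads of 22 nt and 439 and 395 of the other lengths, log2 ratios of -1.31 and -0.08. For serine the ratios were -1.32 and -0.02, for tyrosine -1.06 and -0.08, for tryptophan -0.94 and -0.12, and for valine -0.76 and -0.10. Alanine had -1.48 at 22 nt and -0.29 (-0.60 to 0.01) at the others. Arginine also differed at the other lengths, with -1.13 (-2.03 to -0.31) from 19 and 36 reads. Lysine had like ratios at 22 nt and at the others, -0.78 and -0.74 (-1.77 to 0.23).

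Glutamate and proline had the lowest shares of 22 nt among the 18 isotypes, in both libraries. Of glutamate reads 33.3% and 37.3% were of 22 nt, against 76.8% and 84.0% of valine reads and 85.4% and 93.0% of alanine reads. Of proline reads 4.08% and 14.0% were of 22 nt. For proline the rule itself takes the main insert out: tcaaatcccggacgagcccCCA, with 447 and 923 reads, matches 3 genome sites whole and so was no member. In all, 6 inserts at tRNA 3' ends with 528 and 997 reads were left out in this way.

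The 293 members at the better tRNA folds were also joined into 95 groups by the last 18 bases ahead of CCA. Each group thus holds 1 tRNA end cut at different starts. In 30 groups with at least 20 reads of 22 nt and 20 of other lengths, the share of 22 nt was higher in siSrf2 as labelled for 27 and in siSrf1 as labelled for 3. The median share was 70.3% and 83.3%. At 22 nt 13 of the 30 were past the size rule, all on the siSrf2 side, and at the other lengths 0 were past it in either direction.

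**Figure D3:**
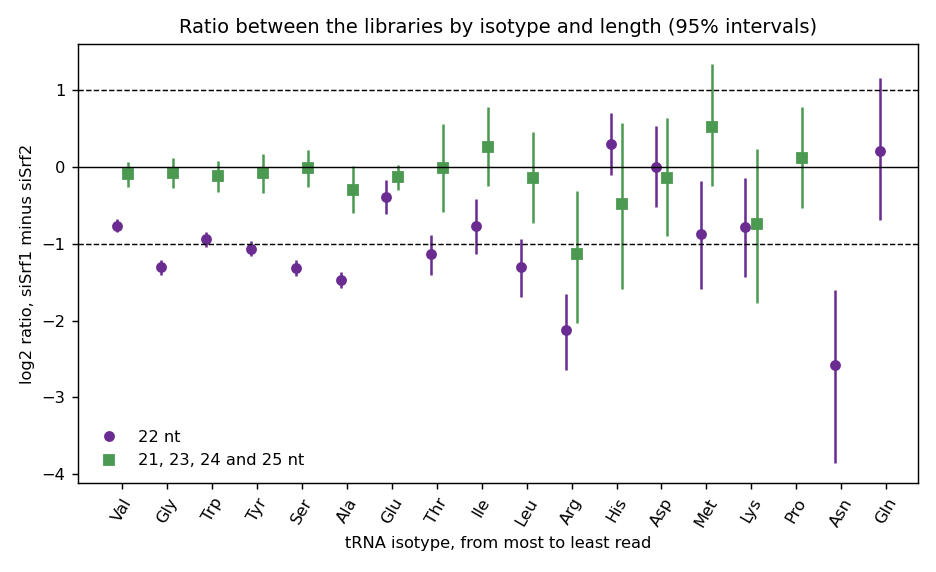
The log2 ratio between the libraries (siSrf1 minus siSrf2) for each tRNA isotype with at least 50 reads, separately for 22 nt and for the other lengths where a group has at least 20 reads, with 95% counting intervals and dashed lines at 2-fold. For Val, Gly, Trp, Tyr, Ser and Ala the 22 nt points lie from -0.76 to -1.48 and the points of the other lengths from -0.02 to -0.29.

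Other pieces of the same tRNAs were also higher in siSrf2 as labelled, some by less than the 22 nt members and some by more. Among inserts of 18 to 25 nt, those from the tRNA 5' end had 38908 and 49340 reads, a log2 ratio of -0.57, and those from the inside had 18458 and 19658, a log2 ratio of -0.32. Inserts with CCA over these lengths, 18 nt included, had 39212 and 42495, a ratio of -0.34. The 3' trailers, which are cut from the precursor before CCA is added, had 512 and 1280 reads, and their log2 ratio was -1.55 (-1.70 to -1.40). Inserts that ended at position 73 without a tail had 77 and 179 reads, a log2 ratio of -1.44 (-1.85 to -1.05). The pooled ratios hide differences between single lengths. From the 5' end, 19 nt had 6802 and 14153 reads, against 9049 and 9639 at 18 nt and 5457 and 5284 at 20 nt. From the inside, 22 nt had 1744 and 2696 reads, against 2260 and 2365 at 21 nt. A step at 1 length was thus seen in other pieces too, not only in the CCA inserts.

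Position 58 was changed in most reads of these tRNA ends. Many tRNAs are known to carry a methyl group on the A at position 58, and reverse transcriptase is known to misread that base. Exact matching leaves such reads out of the members, so they were counted apart, as reads with exactly 1 base changed against 1 of the 46 tRNA members with at least 100 reads. At position 58 there were 19629 and 37116 changed reads beside 10411 and 17066 unchanged, a share of 65.3% and 68.5%. At the other positions the median share was 0.583% and 0.501%, and the highest was 2.74% and 1.96%, at position 76. The changed reads at position 58 alone outnumbered all reads of the members.

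Of the changes 70.7% and 72.9% were from A to T, 26.5% and 25.2% from A to G, and 2.80% and 1.90% from A to C. Methylation itself was not measured, and its part in these changes was not tested.

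**Figure D4:**
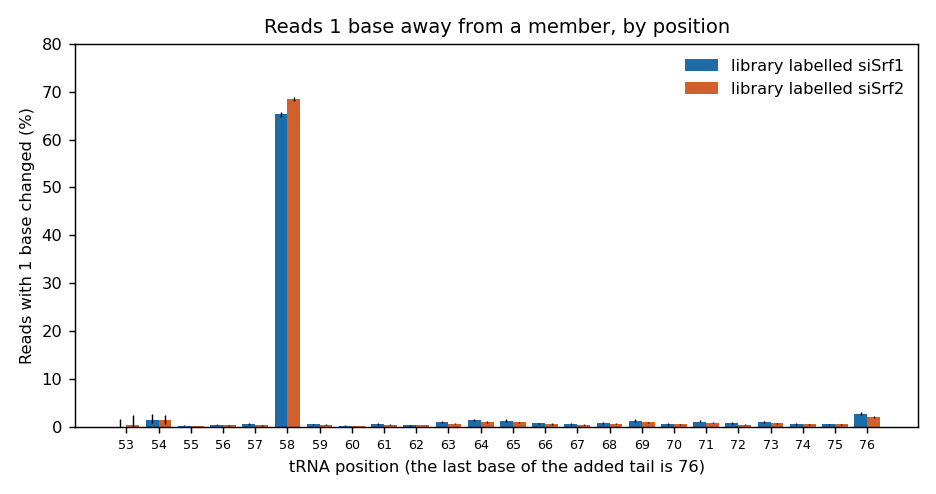
Share of reads (%) with exactly 1 base changed against a member, by tRNA position from 53 to 76, for the library labelled siSrf1 and the library labelled siSrf2, with 95% counting intervals. Position 58 stands at 65.3% and 68.5%, and no other position is above 2.74%.

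The forms of 5 members at position 58 are printed here, with the base at that position in capitals, to show how far they differ. Positions in the tokens count from 1 at the insert's 5' end.
Tyr-22-a as in the genome: tcgAttccggctcgaaggacca
Tyr-22-a with A4T: tcgTttccggctcgaaggacca
Gly-22-a as in the genome: tcgAttcccggccaacgcacca
Gly-22-a with A4T: tcgTttcccggccaacgcacca
Trp-22-a as in the genome: tcaAatcacgtcggggtcacca
Trp-22-a with A4T: tcaTatcacgtcggggtcacca
Trp-22-a with A4G: tcaGatcacgtcggggtcacca
Ala-22-c as in the genome: tcgAtccccggcacctccacca
Ala-22-c with A4T: tcgTtccccggcacctccacca
Glu-23-a as in the genome: ttcgActcccggtgtgggaacca

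Tyr-22-a had 797 and 1348 reads as in the genome and 4721 and 10312 with A4T, so the changed form was the most read. A4G had 131 and 224 and A4C had 14 and 21. Gly-22-a had 456 and 1135 reads as in the genome and 994 and 3522 with A4T. Trp-22-a was spread more evenly, with 798 and 853 reads of A4T, 636 and 825 of A4G and 241 and 321 of A4C beside 758 and 1282 unchanged. Ala-22-c had 124 and 440 unchanged reads and 1 and 3 of A4T. Glu-23-a had 246 and 237 unchanged reads and 3 and 1 changed at that position in all.

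The share changed at position 58 ranged from 0% to 90.9% over the 46 members in the library labelled siSrf1. Between the libraries it differed by a median of 3.27 percentage points and by at most 15.7, for Thr-22-a. It was 90.9% and 90.7% for Tyr-21-a, 89.5% and 89.5% for Trp-22-b, and 85.4% and 83.9% for Ala-22-d. At the low end stood Ala-22-c with 1.59% and 1.12%, Glu-23-a with 1.205% and 0.420%, and Glu-22-a with 0% (0 of 179 reads) and 1.30%. Ala-22-b, from which Ala-22-c differs by A3G only, had 10.6% and 4.10%. Alanine members thus reached from 1.59% to 85.4% in the library labelled siSrf1. Over isotypes the share was 81.2% and 83.5% for tyrosine, 78.2% and 77.7% for tryptophan, 74.1% and 77.3% for glycine, 44.1% and 45.1% for valine and 7.31% and 7.76% for glutamate.

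**Figure D5:**
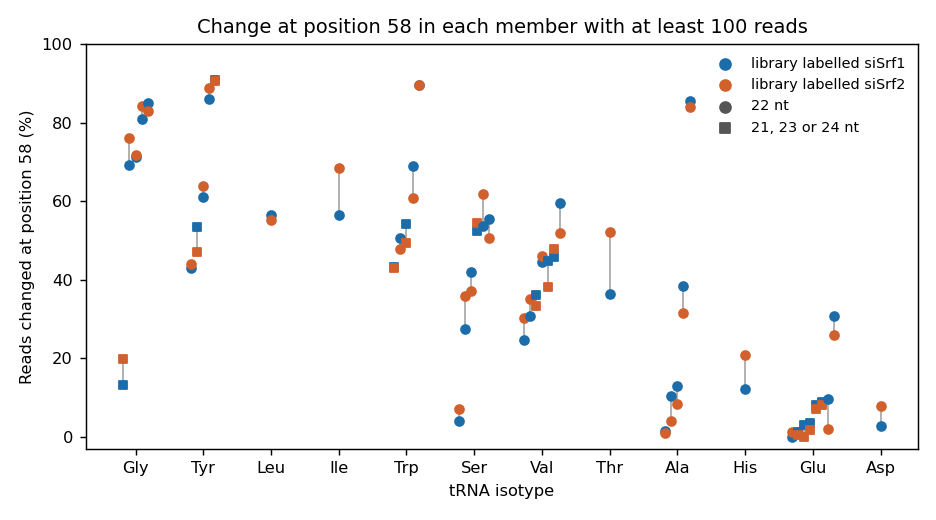
Share of reads (%) changed at position 58 for each of the 46 tRNA members with at least 100 reads, by isotype, with a line joining the library labelled siSrf1 to the library labelled siSrf2. Members spread from 0% to 90.9% in the library labelled siSrf1, and the points of the libraries lie close together for most members.

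The rule left these changed reads out. They were counted only against the 46 members with at least 100 reads, 32 of them of 22 nt. Their pattern of length was like that of the members and is no separate support for it. At 22 nt there were 17714 and 35404 reads changed at position 58, a log2 ratio of -1.23 (-1.25 to -1.20). At 21 nt there were 1714 and 1544, a log2 ratio of -0.08 (-0.18 to 0.02), at 23 nt 147 and 126, and at 24 nt 54 and 42. Over these lengths the ratio of the changed reads was -1.15 (-1.17 to -1.12) and that of their unchanged members -0.94 (-0.98 to -0.91). The share changed was 67.0% and 69.6% at 22 nt, 64.4% and 64.3% at 21 nt, and 22.6% and 20.2% at 23 nt, where 2 of the 3 members are of glutamate tRNA.

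Outside tRNA 3' ends the members were many and little read. Members in miRNA hairpins numbered 115 with 249 and 290 reads, those in other annotated exons 70 with 214 and 191, and those in no annotated exon 513 with 507 and 610. Of these 513, 443 were seen once. In the library labelled siSrf1 14.5% of the reads in hairpins, 21.5% of those in other exons and 41.0% of those in no annotated exon were of 22 nt, against 73.6% at tRNA 3' ends.

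The most read member with no tRNA site, no-tRNA-22-a, has 1 genome match, chr13:95825230-95825248 on the minus strand, in an intron of Pde8b, which encodes a phosphodiesterase. It had 30 and 101 reads, a 3.90-fold difference. Apart from A4T, which is at position 58, it equals the end of an alanine tRNA, Ala-22-g, which had 9 and 37 reads. Of the 25 members outside the better tRNA folds with at least 10 reads and no A at position 58, 4 equalled a tRNA end once A was put there, for alanine (2), valine and arginine.

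Next came no-tRNA-24-a, at the 3' end of the spliceosomal U2 snRNA, with 67 and 48 reads. Its genome sites already hold CC after the body, so that only A was added. A member in the hairpin of Mir92b with the same feature had 52 and 48 reads. Neither was past 2-fold.

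Members whose body also matches the mitochondrial genome were few, 120 with 40 and 192 reads outside the other kinds, with a 5.57-fold higher level in siSrf2 as labelled. CCA inserts that match only the mitochondrial genome, which are no members, numbered 127 with 36 and 131 reads and were 4.22-fold higher there. Of these, 22 with 7 and 24 reads lay at the annotated end of a mitochondrial tRNA, and 27.8% and 10.7% of the 127 inserts' reads were of 22 nt. Leaving out every member that matches the mitochondrial genome left the log2 ratio of all members at -0.84.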

How the data were processed

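Small RNA libraries of HL-1 cells were prepared with an Illumina kit for the Genome Analyzer, per the labels' protocols. The authors deposited a count of reads for each distinct sequence of 36 nt, with no normalization. No source used here gives their aligner, genome build or filters. Reads were cut at the first 8 nt of the adapter, or at 4 nt or more at the read end, and inserts of 15 nt or longer were kept. Inserts and bodies were searched exactly on both strands of NCBIM37 (Python 3.11.15, numba 0.67.0). miRNA reads are inserts of 18 to 25 nt inside GENCODE vM1 hairpins. RefSeq tRNA genes (GRCm38.p6) were used for chromosome, anticodon and length only. Ratios are log2 of scaled reads plus 0.5, with an exact binomial interval given the sum, and shares have Clopper-Pearson intervals. The size rule asks for 50 reads, 2-fold and an interval on 1 side of 0.

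The text names the 12 most abundant members, the most read of each isotype, the 4 furthest in each direction with 200 reads, and the most read outside tRNA. Other members it names, and the limit on fold rank, were chosen after their values were seen. Members and lists were chosen with earlier results of these data known. Scripts were tested on simulated data. TMM (edgeR 4.0.16) and median-of-ratios (DESeq2 1.42.0) factors served as alternative scalings. With 1 library per group no p-value was computed. No sequence from chromosome 18 is printed.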

Additional observations from a re-analysis of the deposited data

How the results depend on the processing

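No paired analysis was possible because the labels give only 1 library to a group. The log2 ratio of all members stayed below 0 under the 12 alternatives, from -0.59 to -0.88. That of the 22 nt members was -0.99 with TMM, -0.80 without the 5 most abundant miRNA inserts and -0.93 scaled to all inserts of 15 nt or longer, short of 2-fold in each. That of the other lengths was 0.075 without those 5 inserts. Scaling moved every ratio by up to 0.26. Members past the size rule, higher in the library labelled siSrf2, were 39 (35 of 22 nt) from 10 reads and 11 (11 of 22 nt) from 200 reads; on the other side 3 were past it from 10 reads and 1 without the 5 miRNA inserts.

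Shares outside the main interval follow, siSrf1 first where both are given. At tRNA 3' ends they were 90.7% and 92.4% with no unpaired position, 95.9% and 96.2% with 2 allowed, 95.7% and 96.8% without members under 10 reads, 95.2% and 95.7% without sequences seen once, 91.8% in siSrf1 with a mismatch in the adapter, and 94.7% in siSrf2 without mitochondrial matches. Shares of 22 nt were 72.7% and 83.7%, 73.6% and 84.5%, and 72.1% and 82.9% without members under 10 reads, at tRNA 3' ends only, and without sequences seen once. In the same order, shares with 1 copy were 15.3% and 17.2%, 14.1% and 16.1%, and 15.7% and 17.98%. At position 58 the share was 53.9% and 56.8% without members of 1000 or more reads, and 67.7% in siSrf2 with an adapter mismatch. Of 243 values for the 27 named members under alternatives, 225 kept their direction and their side of the size rule. The alternatives for 22 nt, the isotype ratios, position 58 and the fold rank were chosen after seeing the data. Adapter and read errors limit members seen once, and no alternative replaces a second library.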
